A study of Mus musculus with 6 samples.

Results

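The 10 genes described here, chosen by symbol for their place in lipoprotein hydrolysis and fatty acid uptake, were Lpl, Lmf1, Gpihbp1, Angptl4, Cd36, Slc27a1, Slc27a4, Vldlr, Fabp4 and Fabp5. They are 10 of the 21829 genes in the deposited table, and all 10 passed the filter on low values, a mean of 1 FPKM. RNA was taken from epididymal white adipose tissue, a visceral fat pad, of male C57BL/6J mice 20 weeks old that ate a normal diet. The mice of 3 libraries are labelled as ZFP251 knockouts (KO) and those of the other 3 were wild-type littermates (WT). The labels give no allele, Cre or promoter for the knockout. Nothing in them says that the libraries came from different mice, and the spread behind each p-value may be technical. Values were read as FPKM, a unit that no file header names, in which fragments are divided by transcript length and mapped total, and differences are KO minus WT on the log2(FPKM + 1) scale. Library values are listed in the order of the replicate numbers 1, 2 and 3.

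Lipoprotein lipase is made by adipocytes, folded with the help of a maturation factor in the endoplasmic reticulum, and carried by GPIHBP1 across the capillary endothelium, where it releases fatty acids from triglyceride-rich lipoproteins. ANGPTL4 inactivates the lipase, most of all in fasting fat. The fatty acids enter cells through CD36 and fatty acid transport proteins and are held in the cytosol by fatty acid binding proteins, which are among the most abundant proteins of a fat cell.

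Zfp251, the targeted gene, went against the labels. It had 3.73, 3.56 and 2.95 FPKM in WT and 6.48, 5.86 and 6.48 FPKM in KO, a difference of 0.72 (limma adjusted p = 0.223; exact permutation test, two-sided, p = 0.1, the smallest that 3 libraries against 3 allow). The value is for the whole gene, so exons cannot be told apart. Directions below are therefore those of the libraries labelled KO. WT 3 stood apart from the others: its FPKM summed to 637902, against 426966 to 472120 in the other 5 libraries, and for the 778 tested genes with transcripts under 1000 nt it lay a median of 0.57 above each gene's mean on the log2 scale, against -0.16 to -0.03 in the others. Fabp4 (896 nt), Fabp5 (987 nt) and Gpihbp1 (825 nt) are in that length class. Values without WT 3 are given where it moves the limma difference of a single gene by over 1.5 times or turns it. The same holds for the 4 relative measures below, and other results have them in part. WT 1 correlated more closely with each library labelled KO (Pearson r across genes 0.974 to 0.986) than with WT 2 (0.966) or WT 3 (0.955). Total depth is unknown.

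Adipocyte markers were present in all 6 libraries, none of them listed at 0, and 19 of the 20 markers were lower in the libraries labelled KO (17 without WT 3), with a median difference of -0.42 (-0.27 without WT 3). Their summed level was 45140 to 76006 FPKM in WT and 33122 to 40242 FPKM in KO. Markers of other cells also differed. The 20 tested multiciliated markers, of 24 listed, were all higher in KO. Their median log2(FPKM + 1) was 1.78, 0.11 and 0.20 in WT and 2.71, 2.83 and 1.88 in KO, so WT 1 lay near KO 3. The 23 in the deposited table summed to 144 to 201 FPKM in WT and 252 to 352 FPKM in KO. The 12 tested epithelial markers of 14 listed were all higher as well. The 14 summed to 14.6 to 144 FPKM in WT and 170 to 345 FPKM in KO, with 3 listed at 0 in WT 2 and 3 in WT 3. Epcam, which defines epithelium, had 14.2 FPKM in WT 1 against 0.199 and 0.191 FPKM in WT 2 and WT 3. The direction of the endothelial markers rested on WT 3: of 16 markers 12 were higher in KO (median difference 0.17), and without WT 3 15 were lower (median -0.25). Their summed level was 863, 936 and 417 FPKM in WT and 684 to 705 FPKM in KO. Of 11 mural markers 9 were higher in KO, and without WT 3 8 were lower. All 8 tested skeletal muscle markers, of 11 listed, were lower in KO, with a summed level of 97.9 FPKM in WT 3 against 11.05 to 28.5 FPKM in the other libraries, and 4 were lower without WT 3. Of 14 macrophage markers 12 were lower in KO, and their summed level was 759 to 996 FPKM in WT and 640 to 804 FPKM in KO. The part of these cell types in the results below was not tested beyond the covariate and relative values given. In bulk tissue, fewer cells of a type and less RNA per cell cannot be told apart.

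The members include paralogues, and stretches of both pairs are shown because the results compare these copies with each other. Each pair of coding sequences (GENCODE vM21 transcripts, GRCm38) was aligned, and the capitals mark the longest run that both genes share. Fabp4 and Fabp5 lie on chromosome 3, on opposite strands. Over 399 aligned coding positions 245 were identical (61.4%) and the longest shared run was 12 nt. The first stretch lies in exon 2 of Fabp4, chr3:10206060-10206111 on the minus strand, and the second in exon 2 of Fabp5, chr3:10014982-10015033 on the plus strand.
Fabp4: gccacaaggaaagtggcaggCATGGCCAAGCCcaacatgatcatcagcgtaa
Fabp5: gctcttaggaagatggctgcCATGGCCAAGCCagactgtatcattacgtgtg

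Slc27a1 and Slc27a4 were identical at 1288 of 1910 aligned coding positions (67.4%), with a longest shared run of 26 nt. In Slc27a1 the stretch joins exon 6, chr8:71580172-71580214, to exon 7, chr8:71580610-71580632, and in Slc27a4 it joins exon 5, chr2:29809689-29809731, to exon 6, chr2:29809836-29809858, all on the plus strand.
Slc27a1: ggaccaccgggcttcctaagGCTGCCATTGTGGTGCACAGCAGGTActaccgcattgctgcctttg
Slc27a4: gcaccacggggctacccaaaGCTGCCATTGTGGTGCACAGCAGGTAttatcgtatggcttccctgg

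All annotated transcripts were searched for shared stretches of 50 bases. Of the 10 members 7 shared none with another gene, Fabp4 and Slc27a4 among them. Fabp5 shared 198 of its 938 such stretches (21.1%) with 5 other genes, 184 of them with the predicted gene Gm6166, so part of its level is uncertain where reads could be assigned to either. Lpl shared 162 of 4066 (3.98%) and Slc27a1 48 of 2746 (1.75%). No annotated gene overlaps any member.

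Mean levels ran from 13.1 FPKM for Lmf1 to 12517 FPKM for Fabp4, with Fabp4 the third most abundant gene of the table by mean FPKM, Lpl the 12th and Cd36 the 20th. Fabp4 alone took 2.65%, 2.57% and 3.68% of the summed FPKM in WT, and 2.03%, 1.99% and 2.25% in KO. By mean FPKM the order was Fabp4, Lpl, Cd36, Slc27a1, Gpihbp1, Angptl4, Fabp5, Vldlr, Slc27a4 and Lmf1. The ranges over the 6 libraries of 4 neighbouring pairs did not overlap, namely Fabp4 over Lpl, Cd36 over Slc27a1, Slc27a1 over Gpihbp1, and Fabp5 over Vldlr. The ranges of the other 5 pairs overlapped. Lpl was above Cd36 in 6 of 6 libraries, and Angptl4 above Fabp5 and Slc27a4 above Lmf1 in only 4 of 6. Within a library, Fabp4 exceeded Fabp5 by 76.0 to 130.8 times in FPKM and Slc27a1 exceeded Slc27a4 by 19.7 to 37.6 times.

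**Figure D1:**
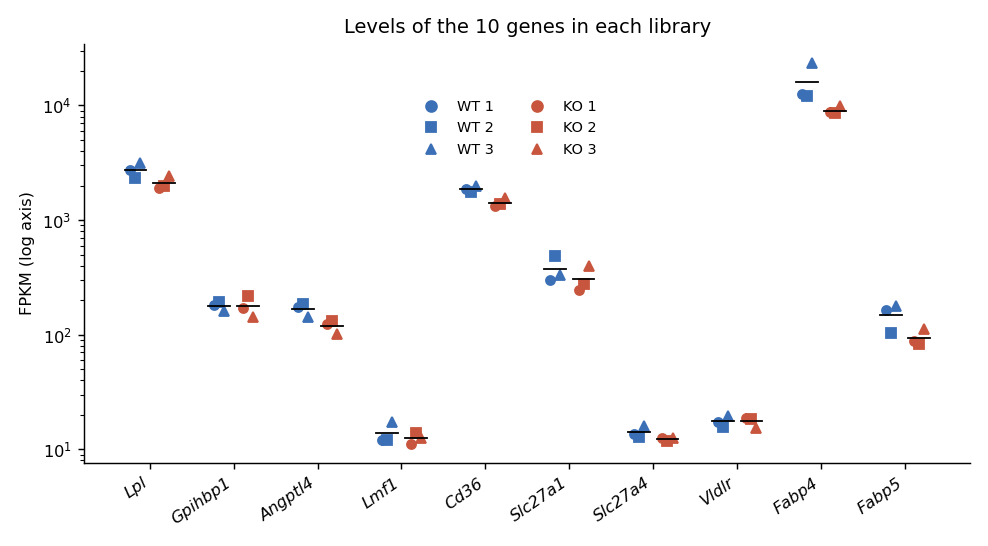
FPKM (log axis) of each of the 10 genes in the 6 libraries, 1 point per library, WT and the libraries labelled KO apart. Fabp4 lies between 8542 and 23451 FPKM and Vldlr, Slc27a4 and Lmf1 lie between 11.2 and 19.4 FPKM.

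None of the 10 members passed limma's adjusted threshold of 0.05, and no gene did among the 12539 tested (0.0% called). All 10 had a difference below 0 in the libraries labelled KO, where 59.2% of all tested genes did. The value for Vldlr was -0.0005, and the signs of Gpihbp1, Lmf1 and Vldlr turned under several alternatives. At an unadjusted p under 0.05 there were 2 members, Angptl4 and Fabp5, both lower, beside 4.43% of tested genes that were lower at that level and 13.6% in either direction. In 4 members, Angptl4, Cd36, Slc27a4 and Fabp4, every library labelled KO lay below every WT library, beside 12.2% of tested genes. No member had every KO library above every WT library, beside 10.1% of tested genes. Without WT 3, 8 of the 10 were lower, beside 58.0% of all tested genes. An unadjusted p under 0.05 was then found for 3 members, beside 13.7% of all tested genes, and the same 4 members were separated, beside 17.9%.

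Abundant genes as a class were also lower in the libraries labelled KO, and the part of abundance in these counts was not tested. The median difference was -0.33 over the 10 members and -0.05 over all tested genes. Over the 7 members whose mean reached 100 FPKM it was -0.40. Over the 710 other tested genes that reached it, the median was -0.29, 86.1% were lower, and 29.7% had every KO library below every WT library, as 3 of those 7 members did. Of the same 710 genes 11.8% were lower at an unadjusted limma p under 0.05, as were 2 of those 7 members, Angptl4 and Fabp5. Without WT 3 the medians of these abundant members and other genes were -0.35 and -0.10. These abundance classes were chosen after the values were seen. After quantile normalization the median was -0.0551 over the members and -0.0555 over all tested genes.

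**Figure D2:**
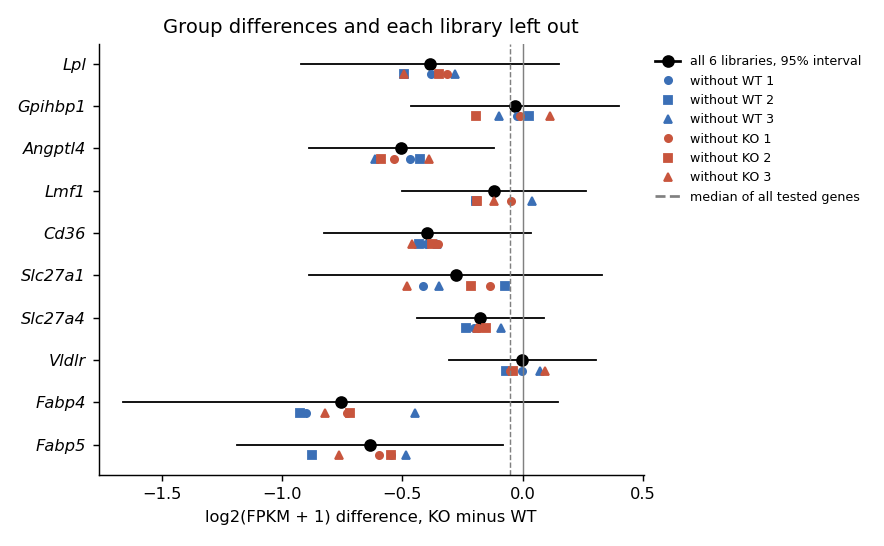
Difference (KO minus WT, log2 scale) of each member with its 95% confidence interval from limma, the dashed line marking the median of all tested genes. The intervals of Angptl4 and Fabp5 end below 0, the other 8 include 0, and none of the 10 passed the adjusted threshold.

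The enzyme and the proteins that mature and carry it came first. Lpl (chr8:68880491-68907448, plus strand), the lipase itself, had 2731, 2348 and 3152 FPKM in WT, and 1887, 1985 and 2422 FPKM in KO. KO 1 and KO 2 lay below the lowest WT library and KO 3 lay between WT 2 and WT 1, so the groups overlapped. The means were 2743 ± 402 and 2098 ± 285 FPKM (SD, n = 3), and the difference of -0.39 (standard error 0.23, 95% confidence interval -0.92 to 0.15) had a limma adjusted p of 0.499.

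Lmf1 (chr17:25579085-25662826, plus strand), the maturation factor that lets the lipase fold, was the least abundant of the 10. It had 12.1, 12.1 and 17.1 FPKM in WT and 11.2, 13.8 and 12.5 FPKM in KO. WT 3 was the highest and the groups otherwise intermingled. The difference was -0.12 (95% confidence interval -0.50 to 0.26, limma adjusted p = 0.755), and without WT 3 it was 0.04.

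Gpihbp1 (chr15:75596628-75599481, plus strand), the capillary anchor of the lipase, had 180.5, 192.9 and 162.5 FPKM in WT. In KO it had 169.8, 219.1 and 142.5 FPKM. KO 2 was the highest library and KO 3 the lowest, so KO spanned the whole range of WT. The means were 178.7 ± 15.3 and 177.1 ± 38.8 FPKM (SD, n = 3), a difference of -0.03 with a 95% confidence interval of -0.46 to 0.40 (limma adjusted p = 0.946). Without WT 3 the difference was -0.10.

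Gpihbp1 is an endothelial gene, so it was also read against 16 endothelial markers of the same library. Its value minus their median was 2.35, 2.31 and 3.17 on the log2 scale in WT, and 2.34, 2.59 and 2.25 in KO. WT 3 was the highest, and its endothelial median was the lowest, 4.18 against 4.91 to 5.29 in the other 5 libraries. The groups overlapped and differed by -0.22 (exact permutation test, two-sided, p = 0.6, adjusted 0.7 over the 4 relative measures), and the difference was 0.06 without WT 3.

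Angptl4 (chr17:33773750-33781830, minus strand), the secreted inhibitor of the lipase, was lower in the libraries labelled KO. It had 175.5, 186.3 and 143.6 FPKM in WT, and 122.8, 132.4 and 100.4 FPKM in KO. KO 2, the highest KO library, lay below WT 3, the lowest WT library, so the groups did not overlap. The means were 168.5 ± 22.2 and 118.6 ± 16.4 FPKM (SD, n = 3), a ratio of 0.704. The difference was -0.50 (standard error 0.16, 95% confidence interval -0.89 to -0.12), with a limma adjusted p of 0.249 (0.0174 unadjusted). Without WT 3 it was -0.61.

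Set against the enzyme, the inhibitor did not differ beyond the spread. The log2 ratio of Angptl4 to Lpl was -3.96, -3.66 and -4.46 in WT, and -3.94, -3.91 and -4.59 in KO. The third library of each group had the lowest ratio, and the groups overlapped. The difference was -0.12 (exact permutation test, two-sided, p = 0.7, adjusted 0.7). It was -0.34 without WT 3, and it turned to 0.06 without WT 2 and to 0.10 without KO 3. Lpl exceeded Angptl4 by 12.6 to 24.1 times in FPKM within a library.

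Among the proteins that take up fatty acids and lipoproteins, Cd36 separated the groups with little spread within them. Cd36 (chr5:17781690-17888801, minus strand), the scavenger receptor that is the main fatty acid receptor of fat, had 1855, 1773 and 1976 FPKM in WT. In KO it had 1334, 1377 and 1552 FPKM. The groups did not overlap. The means were 1868 ± 102 and 1421 ± 116 FPKM (SD, n = 3), a ratio of 0.761, and the difference was -0.40 (standard error 0.18, 95% confidence interval -0.83 to 0.03, limma adjusted p = 0.400). It was -0.03 after quantile normalization and -0.13 when all libraries were set to a common FPKM sum, a scaling that moved the median of all tested genes up by 0.23.

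A promoter window of Cd36 is shown because it was, with Slc27a4, the member with separated groups that the RefSeq promoter table held. That table (GRCm38.p6) matched 5 of the 10 members, Lmf1, Cd36, Slc27a1, Slc27a4 and Vldlr, with 8 windows. The sequence is the 250 bases before the start that the table gives for Cd36, chr5:17835897-17836146 on the minus strand. That start is internal to the gene span given above, whose first exons lie further upstream, and use of this start was not measured. The capitals mark the motifs found.
Cd36: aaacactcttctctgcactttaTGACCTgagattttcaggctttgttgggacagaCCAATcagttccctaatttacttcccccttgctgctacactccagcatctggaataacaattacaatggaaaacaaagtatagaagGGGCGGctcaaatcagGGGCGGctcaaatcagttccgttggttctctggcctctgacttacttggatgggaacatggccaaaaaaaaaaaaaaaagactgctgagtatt

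The motifs were searched on both strands, and none of their letter strings contains another. AGGTCA, the core letters of nuclear receptor sites, lay on the other strand 228 bases before the start, and 14.0% of the 32851 windows in the table held it. The string CCAAT lay 195 bases before the start and was in 33.8% of windows. GGGCGG, a binding string of general factors, lay at 109 and at 93 bases and was in 32.7% of windows. The Cd36 window did not hold TATAAA, which was in 12.4% of windows. It did not hold the E-box CACGTG either, which was in 6.0%. Among the other 4 matched members no window held the nuclear receptor string. These are matches of letters and nothing more.

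The fatty acid transport proteins differed from each other in level and in spread. Slc27a1 (chr8:71568882-71587302, plus strand), the insulin-responsive transport protein of fat and muscle, had 301.7, 485.5 and 330.5 FPKM in WT and 246.4, 275.4 and 399.5 FPKM in KO. WT 2 and KO 3 were the highest libraries, and the groups overlapped. The difference was -0.28 (95% confidence interval -0.89 to 0.33, limma adjusted p = 0.642), and without WT 2 it was -0.07.

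Slc27a4 (chr2:29802634-29817522, plus strand), a broadly expressed acyl-CoA synthetase of the same family, had 13.5, 12.9 and 16.0 FPKM in WT. In KO it had 12.5, 11.9 and 12.6 FPKM. The groups did not overlap, though WT 2 lay close above KO 3. The means were 14.1 ± 1.62 and 12.3 ± 0.376 FPKM (SD, n = 3), the difference was -0.18 (95% confidence interval -0.44 to 0.09, limma adjusted p = 0.520), and without WT 3 it was -0.09.

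Vldlr (chr19:27216484-27254231, plus strand), the receptor that holds very low density lipoproteins near the lipase, had nearly the same mean in both groups. It had 17.4, 15.8 and 19.4 FPKM in WT and 18.9, 18.6 and 15.2 FPKM in KO. KO 3 was the lowest library and WT 3 the highest. The means were 17.5 ± 1.83 and 17.5 ± 2.01 FPKM (SD, n = 3). The 95% confidence interval of the difference, -0.31 to 0.31, includes differences of either sign. Without WT 3 the difference was 0.07.

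With all 6 libraries, the binding proteins had the lowest ratios of KO to WT mean among the 10. This order rested on WT 3. Without it Angptl4 had the largest difference of the 10 (-0.61), beside -0.49 for Fabp5 and -0.45 for Fabp4. The length and GC correction gave -0.47 for Fabp4, -0.46 for Angptl4 and -0.36 for Fabp5. Fabp4 (chr3:10204088-10208576, minus strand), the binding protein of mature adipocytes, had 12500.0, 12059.8 and 23451 FPKM in WT, and 8679, 8542 and 9870.2 FPKM in KO. The groups did not overlap, and WT 3 lay 1.00 on the log2 scale above the gene's mean, while the other 2 WT libraries lay 0.04 and 0.09 above it. The means were 16004 ± 6454 and 9030.5 ± 730 FPKM (SD, n = 3), a ratio of 0.564. The difference was -0.76 (standard error 0.38, 95% confidence interval -1.66 to 0.15, limma adjusted p = 0.441). Without WT 3 it was -0.45, and after quantile normalization -0.08.

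Fabp5 (chr3:10012548-10016607, plus strand), the binding protein shared by fat cells, macrophages and epithelia, had 164.4, 104.1 and 179.3 FPKM in WT. In KO it had 88.1, 82.2 and 111.6 FPKM. KO 1 and KO 2 lay below the lowest WT library, WT 2, and KO 3 lay above it, so the groups overlapped. The difference was -0.64 (standard error 0.23, 95% confidence interval -1.19 to -0.08), with a limma adjusted p of 0.306 (0.0301 unadjusted). With each library left out in turn the difference ran from -0.88 to -0.49, the latter without WT 3.

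The balance between the paralogues did not separate the groups. The log2 ratio of Fabp5 to Fabp4 was -6.25, -6.86 and -7.03 in WT, and -6.62, -6.70 and -6.47 in KO. All 3 KO libraries lay inside the WT range, and the difference of 0.12 gave p = 0.7 (exact permutation test, two-sided, adjusted 0.7). Without WT 3 the difference was -0.04.

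**Figure D3:**
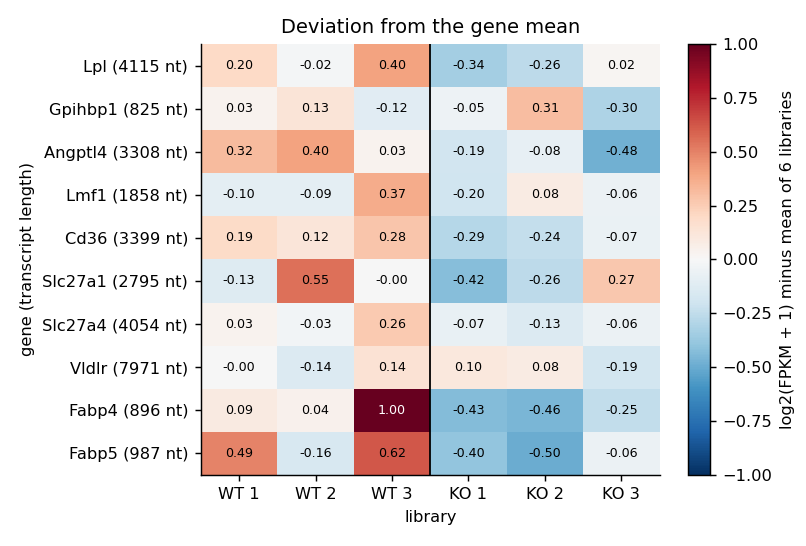
Deviation of each member from its own mean over the 6 libraries (log2 scale), 1 cell per gene and library. WT 3 is the highest library for 7 of the 10 genes, with Fabp4 at 1.00 and Fabp5 at 0.62, while Gpihbp1 is highest in KO 2 and Angptl4 and Slc27a1 in WT 2.

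The members were then read against the adipocyte markers of the same library, since these markers moved with the groups. The median member minus the median adipocyte marker was -2.02, -1.93 and -2.29 on the log2 scale in WT, and -2.46, -2.06 and -2.46 in KO. KO 2 lay inside the WT range and KO 1 and KO 3 below it. The difference was -0.25 (exact permutation test, two-sided, p = 0.2, adjusted 0.7), and it was 0.08 when the mean of the marker list replaced its median. After the length and GC correction it was -0.075 (exact permutation test, two-sided, p = 0.9). The median adipocyte marker itself differed by -0.05 between the groups. This reference thus moved less than the typical marker, whose own difference was -0.42, or than the mean of the list, which differed by -0.37.

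Read singly against the median marker, Cd36 and Fabp4 had every KO library below every WT library (differences -0.35 and -0.71, exact permutation test, two-sided, p = 0.1 for each, the smallest possible). The same reading gave -0.59 for Fabp5, -0.46 for Angptl4 and -0.34 for Lpl, each with an exact permutation p of 0.2. Adjusted over the 10 members, each of these 5 values was 0.333, and with 3 libraries a group none could pass 0.05. Against the mean of the same list, an alternative chosen after seeing the data, Fabp4 alone of these 5 kept its groups apart (-0.38, exact permutation p = 0.1). Against that mean Cd36 differed by -0.02, Lpl by -0.01, Angptl4 by -0.13 and Fabp5 by -0.26, all with groups that overlapped. Among the other members Lmf1 (0.26) and Slc27a4 (0.20) had every KO library above every WT library against it (exact permutation p = 0.1 for each).

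**Figure D4:**
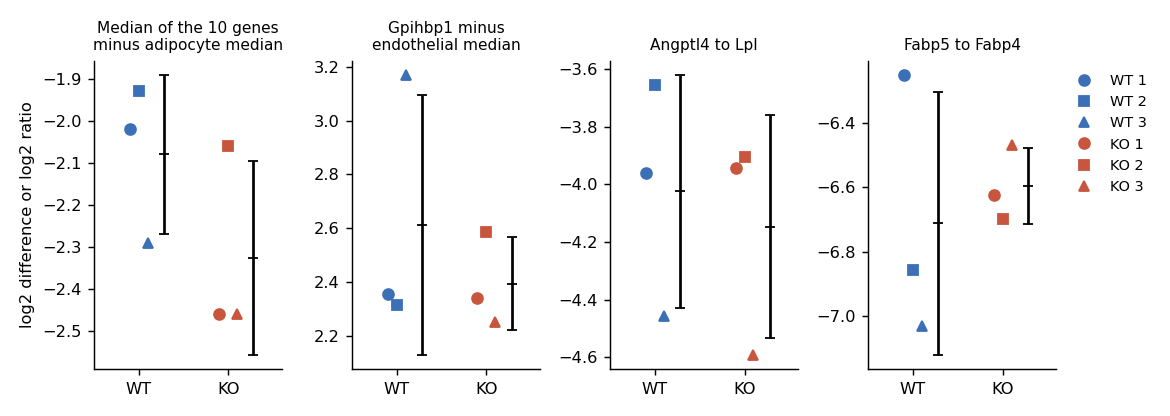
Relative values (log2 scale), 1 point per library. Shown are the median member level against the median adipocyte marker, Gpihbp1 against endothelial markers, Angptl4 against Lpl and Fabp5 against Fabp4. The groups overlap in all 4.

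Other genes of these steps went both ways. In 6 lists of them, 0 genes passed limma's adjusted threshold. Of 6 tested cofactors and angiopoietin-like inhibitors of the lipase (8 listed) 4 were lower and 2 higher, with a median of -0.21. Of 12 genes of lipase folding, cleavage and matrix binding 3 were lower and 9 higher, with a median of 0.17, and of 8 tested other lipases and receptors (11 listed) 2 were lower and 6 higher (median 0.07). Of 15 tested genes of fatty acid transport and activation (19 listed) 6 were lower and 9 higher (median 0.02). Of 5 tested lipid-binding proteins (13 listed) 3 were lower and 2 higher (median -0.23), and of 17 transcriptional regulators 9 were lower and 8 higher (median -0.05). Without WT 3 the median of the cofactors was 0.11, that of folding, cleavage and matrix binding -0.02 (7 lower and 5 higher) and that of the other lipases and receptors -0.04.

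Among the cofactors, Apoc1, a lipoprotein protein that restrains the lipase, was lower in every KO library, with 512.6, 422.2 and 1082 FPKM in WT and 243.1, 290.3 and 416.8 FPKM in KO (difference -0.995, limma adjusted p = 0.326). WT 3 was far above the other WT libraries, and without it the difference was -0.59. Apoe, a ligand for lipoprotein receptors, had -0.29 (-0.09 without WT 3) and Apoc3, an inhibitor of the lipase, had 0.41 (0.68 without WT 3). In folding, cleavage and matrix binding the leading genes were higher. Gpc1, a heparan sulfate proteoglycan, had 3.74, 5.12 and 4.95 FPKM in WT and 7.003, 7.06 and 6.54 FPKM in KO (difference 0.50, limma adjusted p = 0.223). Furin, the protease that can cleave the lipase, had 26.7, 25.9 and 15.1 FPKM in WT and 28.9, 30.5 and 31.0 FPKM in KO. Its difference was 0.44, and 0.19 without WT 3, the lowest library. Calr, a chaperone of the lipase, had -0.25.

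Among receptors and transporters, Sorl1, a sorting receptor, had 3.39, 2.40 and 2.42 FPKM in WT and 4.73, 4.42 and 3.18 FPKM in KO (difference 0.45, limma adjusted p = 0.338). The groups overlapped. Sort1, the sorting receptor sortilin, had -0.20 and Scarb1, the receptor for high density lipoprotein, -0.15. Slc27a3, of the fatty acid transport family, had a difference of 0.41 without overlap, and Got2, a mitochondrial aminotransferase also described at the plasma membrane, one of 0.62. Slc27a2, the transport protein of liver and kidney, had 3.84, 0.04 and 0 FPKM in WT and 9.21, 9.94 and 4.30 FPKM in KO. Its difference was 2.29 (limma adjusted p = 0.223), and the groups did not overlap. Among the WT libraries Slc27a2 was high in WT 1 alone, as was Epcam.

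Among lipid-binding proteins, Crabp1, which binds retinoic acid, followed the same libraries, with 4.84 FPKM in WT 1, a listed 0 in WT 2 and WT 3, and 10.4, 11.3 and 4.46 FPKM in KO. Crabp1 had a difference of 2.34 (limma adjusted p = 0.233), and its groups overlapped. Scp2, a sterol carrier, had 614.2, 559.7 and 1021 FPKM in WT and 435.0, 455.1 and 497.4 FPKM in KO, and Dbi, which binds acyl-CoA, had a difference of -0.56. Both were lower in every KO library and highest in WT 3, without which Scp2 had -0.34 and Dbi -0.19. Among regulators, Cebpb, an early factor of adipogenesis, had 34.8, 40.9 and 58.0 FPKM in WT and 28.2, 26.7 and 30.4 FPKM in KO (difference -0.60, limma adjusted p = 0.241; -0.40 without WT 3). Nr1h3, the sterol receptor LXR alpha, and Cebpa, a factor of mature adipocytes, both had -0.42, with groups that did not overlap for Nr1h3 and did for Cebpa. Without WT 3 Nr1h3 had -0.25.

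The genes most alike to 3 of the members across the 6 libraries were found by the root mean square distance between log2(FPKM + 1) values centred on each gene's mean, among 9069 genes whose mean reached 5 FPKM. Nearest to Lpl was Mfsd8 at 0.042, with Cs and Pla2g15 at up to 0.057, beside 0.25 for Lpl's own spread around its mean. Nearest to Cd36 was H2-K1 at 0.035, then Ahcyl2, Slc7a6 and Mrc1 at up to 0.048, beside 0.21 for Cd36. Nearest to Angptl4 was Ifitm6 at 0.058, then Ppp1r15a, Tmcc1 and Acacb at up to 0.104, beside 0.30 for Angptl4. In each set the likeness is over the same 6 libraries, so it is a description.

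**Figure D5:**
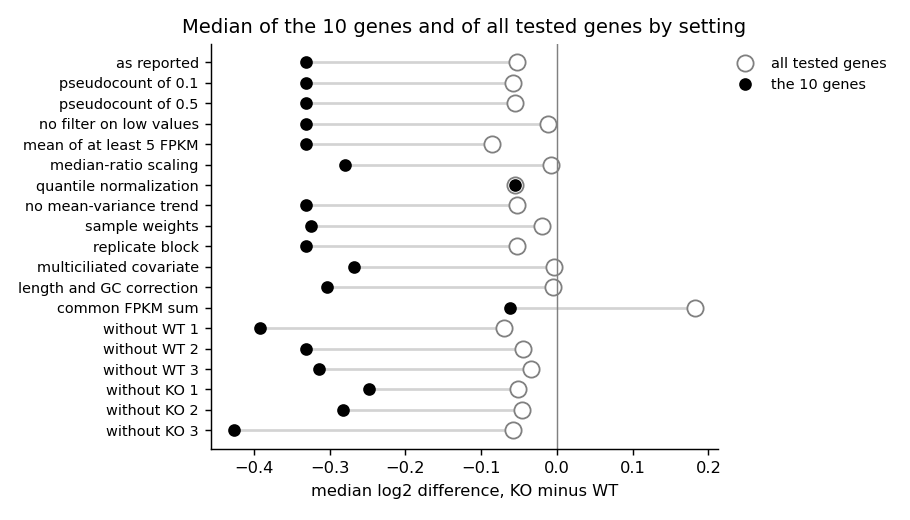
Median difference (KO minus WT, log2 scale) of the 10 members and of all tested genes under each processing setting. The members' median lies below that of all tested genes in each setting except quantile normalization, where they are -0.0551 and -0.0555.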

How the data were processed

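Total RNA of 6 libraries was sequenced as mRNA. Extraction was with TRIzol and library preparation with a stranded mRNA kit, per the labels' protocols. The submitters' processing notes name STAR 2.5.4, Cufflinks, Cuffdiff 2.2.1 and the build mm10, but neither the annotation nor the scaling, which is not given in the sources used here. The deposited values were read as FPKM from the authors' tools and from the values, since no header names the unit. They are not counts, so no count test was run.

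The table has 21853 rows. For symbols on several rows only the most abundant row was used, which dropped 24. The 12539 genes whose mean reached 1 FPKM were tested as log2(FPKM + 1), which understates changes of low genes, with limma 3.58.1 in R 4.3.3 (group as the only term, mean-variance trend, Benjamini-Hochberg adjusted p under 0.05 over all tested genes). Single measures used exact permutation tests, two-sided. The limma fit was tested on simulated data. Among low FPKM values the commonest step between libraries gave depths relative to WT 1 of 0.651 to 0.946 in WT 2 and the KO libraries, from 15.1% to 21.8% of the genes compared, and in WT 3 only 11.2% lay at 1 step. Positions and transcript lengths came from GENCODE vM21 on GRCm38, the assembly of mm10.

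The members, gene lists and rules were chosen with earlier results of these data known. Named genes were the 10 members, Zfp251, the 3 genes of each pathway list with the smallest unadjusted p, and the 4 genes most alike in pattern to Lpl, Cd36 and Angptl4 (no predicted genes, Riken clones or pseudogenes). A gene that this rule picks is not reported here. Epcam was named after its values were seen. The alternatives were pseudocounts of 0.1 and 0.5, other filters, scalings and weights, a covariate for multiciliated cells, a length and GC correction, the replicate block and each library left out. The common FPKM sum was chosen after seeing the data.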

Additional observations from a re-analysis of the deposited data

How the results depend on the processing

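With sample weights 3 members passed limma's threshold (Angptl4 -0.52, adjusted p = 0.039; Cd36 -0.43, 0.048; Fabp5 -0.81, 0.039) and 970 genes did in all. The weights ran from 0.142 for WT 3 to 4.02 for WT 1. Zfp251 also passed then (0.64), and without WT 1 (0.78), when 482 genes did, and ran from 0.65 to 0.78 with a library left out. In the other settings 0 members passed. The number at an unadjusted p under 0.05 was 5 without the mean-variance trend (13.5% of all tested genes), 5 with weights (31.2%), 4 at a mean of at least 5 FPKM (10.6%), 0 after quantile normalization (14.4%) and 0 without WT 1 (14.7%). The median of the members was -0.0551 after quantile normalization and -0.0618 with a common FPKM sum, and -0.43 to -0.25 with a library left out. Under that sum 6 members were lower.

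Signs turned as follows, and the cause was not tested. With a library left out, Angptl4 relative to Lpl ran from -0.34 to 0.10 (0.0613 without WT 2), Fabp5 relative to Fabp4 from -0.0439 (without WT 3) to 0.35, and Gpihbp1 relative to endothelial markers from -0.37 to 0.0606 (without WT 3). Quantile normalization gave -0.30 for Fabp5 relative to Fabp4, 0.0324 for Lpl, 0.20 for Gpihbp1 and 0.0512 for Vldlr. The length and GC correction gave 0.0232 for Gpihbp1 relative to endothelial markers and 0.20 for Gpihbp1. The capillary list gave 0.20 for it relative to markers, and the mean of the adipocyte list 0.0791 for the members' median and, for single members, 0.26 for Lmf1, 0.097 for Slc27a1 and 0.20 for Slc27a4. Median-ratio scaling gave 0.0206 for Gpihbp1 and 0.0488 for Vldlr. The common sum gave 0.24 for Gpihbp1, 0.13 for Lmf1, 0.0756 for Slc27a4 and 0.26 for Vldlr. The multiciliated covariate gave 0.0661 for Lmf1 and 0.36 for Slc27a1, and sample weights 0.07 for Vldlr. With a library left out, Gpihbp1 ran from -0.20 to 0.11 (positive without WT 2 or KO 3), Lmf1 from -0.20 to 0.0377 (without WT 3), and Vldlr from -0.0704 to 0.0928 (positive without WT 3 or KO 3).

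The titles share replicate numbers. Deviations of same-numbered libraries correlated at 0.228, -0.20 and 0.22, and the deviations of WT 1 correlated best with those of KO 2 (0.426). With so few libraries a group, these correlations cannot decide whether same-numbered libraries were paired. With the replicate block 0 members passed and the median was -0.33. Depth is unknown, so differences in Lmf1, Slc27a4 and Vldlr, the least abundant, carry no counting interval.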
